A study of Homo sapiens with 8 samples.

Results

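The transcripts of 10 amino acid transporters were followed in the established prostate cancer cell line LNCaP, which came from a lymph node metastasis. The members were named by symbol and comprised SLC7A11, SLC7A5, SLC3A2, SLC43A1, SLC1A5, SLC1A4, SLC38A1, SLC38A2, SLC7A1 and SLC6A9, which are 10 of the 36474 genes in the count table. All 10 were among the 21071 genes that passed the filter on low counts. The cells had been kept for 6 to 12 h in medium that lacked serum and calcium and were then exposed to recombinant asporin (ASPN, a small leucine-rich proteoglycan of the extracellular matrix made by stromal cells) at 100 ng/mL. RNA was collected at 0 h (n = 2 libraries), 12 h (n = 3) and 24 h (n = 3), and the labels call the libraries of a time point biological replicates. The 0 h libraries carry the ASPN label too and are the starting point of the time course. Cells held in the medium for the same times without ASPN were not analysed here, so the effect of ASPN and that of time in the medium cannot be told apart.

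Cells take up amino acids through families of membrane carriers with overlapping substrates. Some carriers concentrate amino acids by coupling them to sodium, and others exchange an amino acid inside the cell for another outside it. In prostate cancer these carriers are known for supplying leucine and glutamine for growth and cystine for glutathione. Transcription of many of them is known to be raised by ATF4, the factor translated when amino acids run short or the endoplasmic reticulum is stressed, which binds C/EBP-ATF elements.

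The 300-base promoter windows of RefSeq were searched on both strands for the C/EBP-ATF element TGATGNAA, as a description. Each window ran from 250 bases before to 50 bases after an annotated start (GRCh38.p14). The table held 9 of the 10 members, all but SLC7A11, with 16 windows. The element lay in windows of 5 members, SLC3A2, SLC38A1, SLC1A4, SLC1A5 and SLC7A1, against 4.46% of the 27305 genes in the table. Genes with more windows have more room for a match, and by window it lay in 5 of the 16, against 3.62% of all 35116. These are the matches, read 5′ to 3′ on the strand of the gene with the matched bases in capitals.
SLC3A2, chr11:62881725-62881748, plus strand: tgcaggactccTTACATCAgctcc
SLC38A1, chr12:46266502-46266531, minus strand: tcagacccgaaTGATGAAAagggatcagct
SLC1A4, chr2:64989381-64989410, plus strand: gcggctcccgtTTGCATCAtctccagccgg
SLC1A5, chr19:46784893-46784922, minus strand: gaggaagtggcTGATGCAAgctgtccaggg
SLC7A1, chr13:29595663-29595692, minus strand: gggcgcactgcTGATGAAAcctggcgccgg
In SLC3A2 and SLC1A4 the element lay on the opposite strand, so the capitals show its reverse complement. The match of SLC3A2 began at base 38, with the RefSeq start of transcription its window is built on counted as the first base. That of SLC1A5 began 97 bases before its own RefSeq start. For SLC3A2, SLC38A1, SLC1A4 and SLC1A5 the start in question lies inside the gene as annotated by GENCODE, and for SLC7A1 it is the gene's first base. The antioxidant element core TGACNNNGC lay in windows of 4 members (SLC7A5, SLC3A2, SLC1A5 and SLC7A1) against 16.1% of genes, and the E-box CACGTG in windows of 3 (SLC7A5, SLC1A5 and SLC43A1) against 8.78% of genes. By window, the antioxidant element core lay in 4 of the 16 against 13.3% of all windows, and the E-box in 3 against 7.26%. These are letter matches, and binding was not measured. The members were chosen with earlier results of these data known, and their difference from other genes was not tested.

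The libraries held 73406825 to 96962135 counts each. All 10 markers of luminal prostate cells were present, with KLK3 (prostate-specific antigen) at 912 to 1386 CPM (normalized counts, scaled by TMM so that libraries of unequal depth compare). The summed level of these 10 markers was 4858 to 4965 CPM at 0 h, 5416 to 5452 CPM at 12 h and 5414 to 5602 CPM at 24 h, so it was higher while the transporters were lower. Its part in the results was not tested. TP63, PTPRC and PECAM1, markers of basal epithelium, leukocytes and endothelium, were at most 0.072 CPM. KRT14 of basal epithelium reached 0.218 CPM and CD68 of leukocytes 0.206 CPM. Among the fibroblast markers, COL1A1 was at 18.9 to 21.3 CPM and LUM at 0.945 to 1.83 CPM. COL3A1 and PDGFRB were at most 0.935 CPM, DCN, FAP and ASPN at most 0.068 CPM, and COL1A2 was not in the count table. Of the 3 endothelial markers, PECAM1 was at most 0.027 CPM and CDH5 at most 0.057 CPM, so their summed level was carried by VWF. This sum was 14.8 to 17.3 CPM at 0 h, 13.5 to 15.2 CPM at 12 h and 11.2 to 13.3 CPM at 24 h. It was lower at 24 h along with the transporters, and its part in the results was not tested. In bulk RNA, fewer cells of a type and less RNA per cell cannot be told apart.

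All 10 transporters were lower at 24 h than at 0 h, to between 0.518 and 0.90 times the starting level, and 9 of them were already lower at 12 h. SLC7A11, the cystine carrier, changed most, by -48.2% at 24 h. SLC43A1, a carrier of neutral amino acids, was level with 0 h at 12 h and changed least at 24 h. Changes are log2 fold changes with their standard errors (SE) from the quasi-likelihood test of edgeR, and a gene passed when its p, adjusted by Benjamini-Hochberg over all genes tested, was at most 0.05. At 12 h, 9 of the 10 passed as lower and none as higher, against 6.75% of all genes tested passing as lower and 4.85% as higher, and the member that missed was SLC43A1. At 24 h, 10 of 10 passed as lower, against 8.49% of all genes passing as lower and 7.82% as higher. All libraries of the later group lay below both 0 h libraries in 9 members at 12 h, as in 19.6% of all genes, and in 10 members at 24 h, as in 21.7% of all genes. The median log2 fold change of the 10 was -0.31 at 12 h and -0.49 at 24 h, beside medians of -0.00069 and -0.0031 over all genes tested. Well-counted genes pass more often, and among the 4014 genes at least as abundant as the least abundant member the share that passed as lower was 16.3% at 12 h and 18.5% at 24 h. Both comparisons share the 0 h libraries, so their counts are not independent. The members were chosen with earlier results of these data known. Their excess over the shares of all genes, here and between 12 h and 24 h, is therefore not independent evidence.

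**Figure D1:**
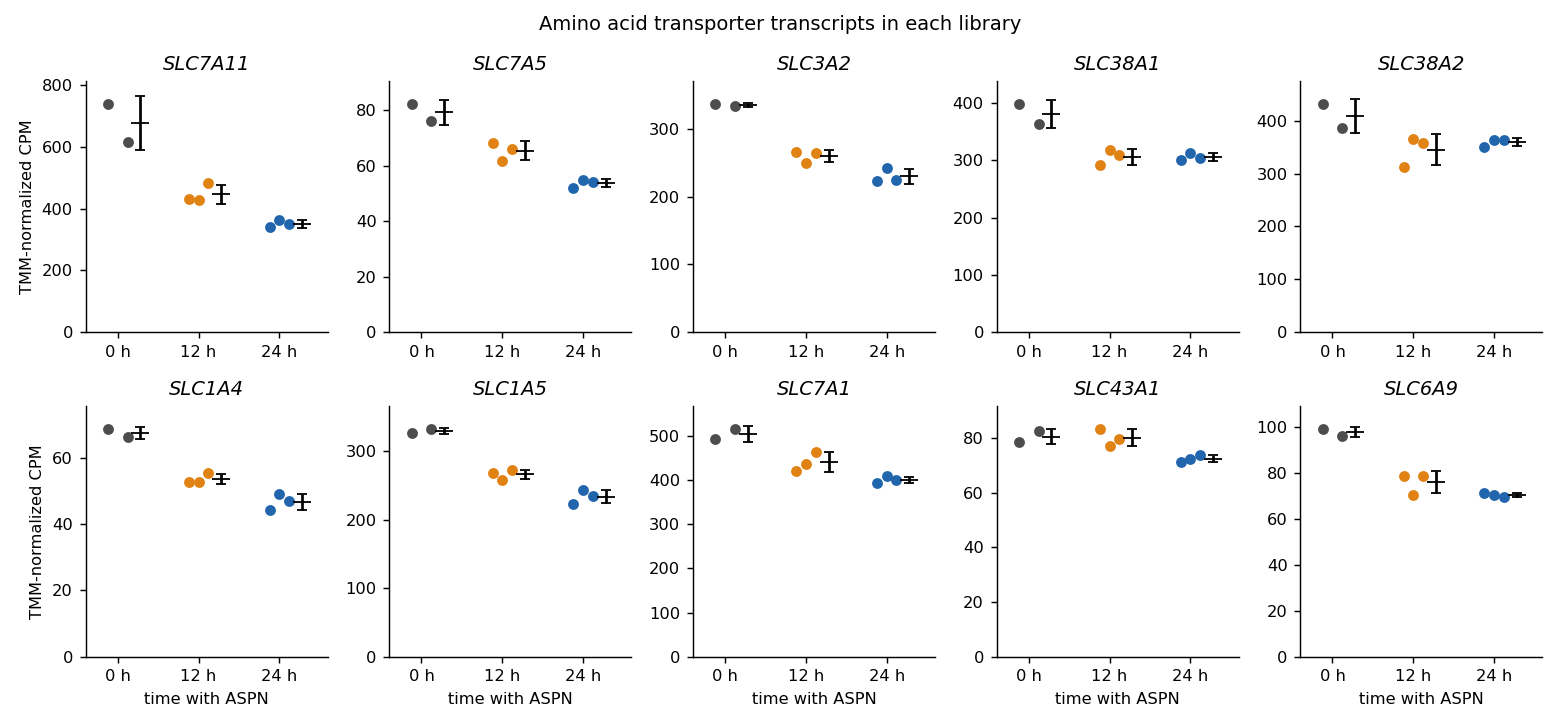
TMM-normalized CPM of each of the 10 transporters (vertical axes, each from 0) in the 8 libraries by hours with ASPN (horizontal axes), 1 point per library in the order of the values in the text, with the mean and SD of each group at its right. For each gene every 24 h library sits below both 0 h libraries, and SLC7A11 has the widest spread at 0 h (616 and 739 CPM).

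SLC7A11 (ENSG00000151012.13, GRCh38 chr4:138164097-138242349, minus strand) encodes xCT, the light chain that imports cystine in exchange for glutamate and so feeds glutathione synthesis. Its level was 739 and 616 CPM in the 0 h libraries, 430, 427 and 482 CPM at 12 h, and 339, 364 and 350 CPM at 24 h. The groups did not overlap in any comparison, although the 0 h libraries differed more from each other for this gene than for any other member. The change was -0.60 ± 0.062 (SE) at 12 h (adjusted p = 1.91e-06) and -0.95 ± 0.062 at 24 h (adjusted p = 8.84e-10). SLC7A11 was the only member that fell by at least 1.5-fold, at both times, where 0.565% and 1.35% of all genes fell that far and passed, although without the unnumbered 0 h library SLC7A5 fell that far at 24 h too (-0.61, adjusted p = 4.12e-08). At 12 h its fall was under 1.5-fold without 0 h replicate 1 (-0.46), without 12 h replicate 1 (-0.57) or replicate 2 (-0.57), and with library totals alone as the scale (-0.58). At 24 h it lay between -1.07 and -0.82 under every alternative run. The antisense gene SLC7A11-AS1 shares 8.97% of the exon bases of SLC7A11 but held 937 counts over the 8 libraries, 0.298% of those of SLC7A11. Its own log2 fold change was -0.30 at 12 h (adjusted p = 0.536) and -0.93 at 24 h (adjusted p = 0.0131).

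SLC3A2 (ENSG00000168003.18, chr11:62856004-62888880, plus strand) encodes 4F2hc (CD98), the heavy chain that carries xCT and LAT1 to the cell surface. It was at 337 and 334 CPM at 0 h, 267, 250 and 265 CPM at 12 h, and 223, 242 and 225 CPM at 24 h. Its 0 h libraries differed by only a few CPM and lay above every later library, and every 24 h library lay below every 12 h library. SLC3A2 fell by 0.37 ± 0.045 on the log2 scale at 12 h (adjusted p = 1.47e-06) and by 0.54 ± 0.045 at 24 h (adjusted p = 1.99e-10). These falls passed under every alternative run.

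SLC7A5 (ENSG00000103257.9, chr16:87830023-87869507, minus strand) encodes LAT1, the exchanger that brings in leucine and other large neutral amino acids when joined to the SLC3A2 product. Its level was 82.3 and 76.1 CPM at 0 h, 68.4, 61.8 and 66.2 CPM at 12 h, and 52.2, 55.0 and 54.1 CPM at 24 h. The groups were fully separated and stepped down at each time. The change was -0.28 ± 0.053 at 12 h (adjusted p = 0.00053) and -0.56 ± 0.053 at 24 h (adjusted p = 2.45e-09). The 12 h change did not pass without 0 h replicate 1 (-0.22, adjusted p = 0.0557), while at 24 h it passed under every alternative. Partial copies of SLC7A5, the pseudogenes SLC7A5P1 and SLC7A5P2 and a pair of long noncoding RNA genes, match 11.8% to 13.5% of its longest transcript at 95.6% to 96.7% identity, and the rows of such copies in the table held 36 counts in all.

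SLC43A1 (ENSG00000149150.9, chr11:57484534-57515780, minus strand) encodes LAT3, a facilitated carrier of branched-chain amino acids that works without the SLC3A2 heavy chain and was first found as a gene overexpressed in prostate cancer. It was at 78.5 and 82.6 CPM at 0 h, 83.5, 77.2 and 79.8 CPM at 12 h, and 71.3, 72.5 and 73.7 CPM at 24 h. The 0 h and 12 h libraries overlapped, and the 24 h libraries lay below all of them. The difference was -0.0069 ± 0.050 at 12 h (adjusted p = 0.959), and the sign of that value turned under 8 of the alternatives. SLC43A1 fell by 0.15 ± 0.050 at 24 h (adjusted p = 0.0313), but it missed the threshold under 8 alternatives, among them the fit without the unnumbered 0 h library (-0.11, adjusted p = 0.233) and the fit without 24 h replicate 1 (-0.14, adjusted p = 0.123).

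SLC1A5 (ENSG00000105281.12, chr19:46774883-46788594, minus strand) encodes ASCT2, the sodium-dependent exchanger known for glutamine uptake by tumor cells. Its level was 327 and 333 CPM at 0 h, 267, 258 and 272 CPM at 12 h, and 223, 242 and 235 CPM at 24 h. No groups overlapped. SLC1A5 fell by 0.31 ± 0.044 at 12 h (adjusted p = 1.10e-05) and by 0.50 ± 0.044 at 24 h (adjusted p = 6.91e-10) on the log2 scale. A long noncoding RNA gene on the opposite strand, ENSG00000275719, covers 23.4% of its exon bases and held 335 counts over the 8 libraries.

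SLC1A4 (ENSG00000115902.11, chr2:64988477-65023865, plus strand) encodes ASCT1, the relative of ASCT2 that exchanges alanine, serine and cysteine. It was at 68.8 and 66.3 CPM at 0 h, 52.8, 52.6 and 55.5 CPM at 12 h, and 44.1, 49.1 and 46.9 CPM at 24 h, again with no overlap between groups. The change was -0.33 ± 0.054 at 12 h (adjusted p = 5.61e-05) and -0.53 ± 0.054 at 24 h (adjusted p = 8.78e-09). For both SLC1 genes the falls from 0 h passed under every alternative run.

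SLC38A1 (ENSG00000111371.16, chr12:46183063-46270017) and SLC38A2 (ENSG00000134294.14, chr12:46358188-46372773) lie beside each other on the minus strand of chromosome 12. They encode SNAT1 and SNAT2, sodium-coupled carriers that load cells with glutamine, alanine and other small neutral amino acids. SLC38A1 was at 398 and 363 CPM at 0 h, 291, 319 and 309 CPM at 12 h, and 300, 313 and 303 CPM at 24 h. SLC38A2 was at 432 and 386 CPM at 0 h, 312, 366 and 358 CPM at 12 h, and 350, 364 and 364 CPM at 24 h. For both genes the 0 h libraries lay above all others while the 12 h and 24 h libraries overlapped. SLC38A1 fell by 0.31 ± 0.047 at 12 h (adjusted p = 1.89e-05) and by 0.32 ± 0.047 at 24 h (adjusted p = 5.59e-06), and passed under every alternative. SLC38A2 fell by 0.24 ± 0.054 at 12 h (adjusted p = 0.00257) and by 0.19 ± 0.054 at 24 h (adjusted p = 0.0156). Its falls rested on 0 h replicate 1, the higher of its pair, without which the changes were -0.16 (adjusted p = 0.234) and -0.11 (adjusted p = 0.408). The 24 h fall of SLC38A2 also did not pass without 24 h replicate 1 (adjusted p = 0.0804).

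SLC7A1 (ENSG00000139514.13, chr13:29509414-29595688, minus strand) encodes CAT1, a carrier of arginine, lysine and ornithine. It was at 492 and 516 CPM at 0 h, 420, 436 and 464 CPM at 12 h, and 394, 408 and 400 CPM at 24 h, with no overlap between groups. SLC7A1 fell by 0.20 ± 0.045 at 12 h (adjusted p = 0.00313) and by 0.33 ± 0.045 at 24 h (adjusted p = 1.51e-06). The 12 h fall did not pass without the unnumbered 0 h library (-0.15, adjusted p = 0.0602).

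SLC6A9 (ENSG00000196517.13, chr1:43991500-44031467, minus strand) encodes GlyT1, a sodium- and chloride-dependent glycine carrier. Its level was 99.3 and 96.2 CPM at 0 h, 78.8, 70.4 and 78.4 CPM at 12 h, and 71.2, 70.6 and 69.3 CPM at 24 h. Both 0 h libraries lay above all later libraries, and 12 h replicate 2 reached down into the 24 h range. The change was -0.37 ± 0.051 at 12 h (adjusted p = 7.84e-06) and -0.47 ± 0.051 at 24 h (adjusted p = 3.01e-08), and both passed under every alternative run. CCDC24 on the opposite strand shares 7.87% of the exon bases of SLC6A9 and held 12083 counts against 53341 for SLC6A9, so without strand in the counting their reads in that stretch cannot be told apart.

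**Figure D2:**
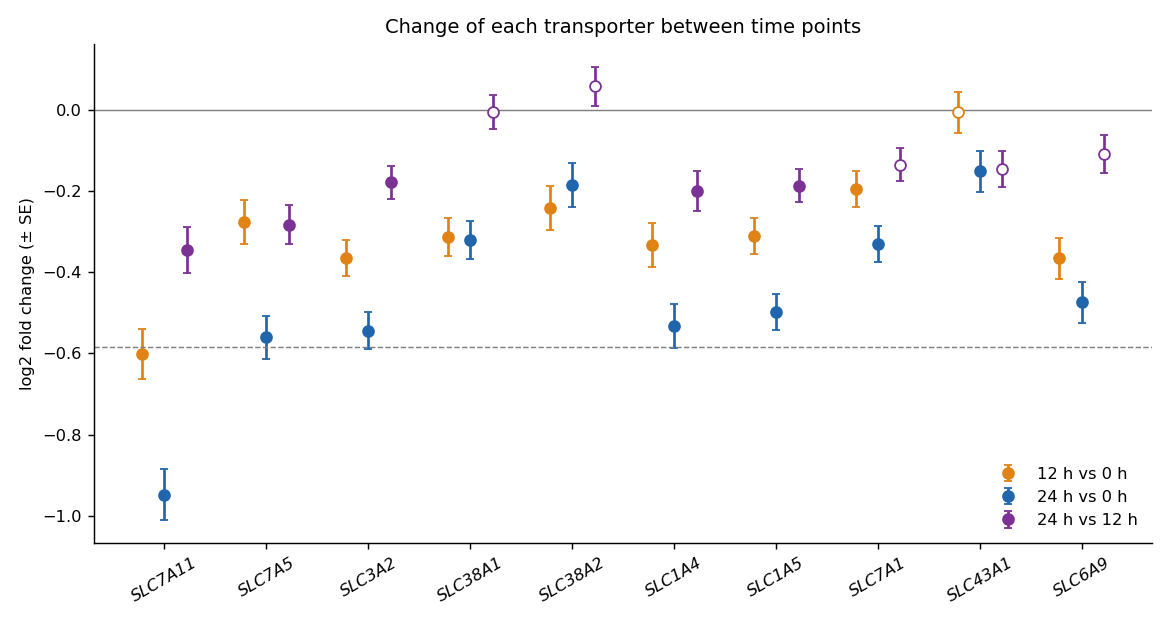
Log2 fold change ± SE of each transporter (vertical axis) in the 3 comparisons, by gene (horizontal axis), from edgeR, with filled points for adjusted p of at most 0.05 and open points above it. The dashed line marks a 1.5-fold fall, which only SLC7A11 passes (-0.60 at 12 h and -0.95 at 24 h), and the open points at 24 h against 12 h are those of SLC38A1, SLC38A2, SLC7A1, SLC43A1 and SLC6A9.

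The third comparison asked whether the transcripts moved on between 12 h and 24 h, with 3 libraries at each time. SLC7A11, SLC7A5, SLC3A2, SLC1A4 and SLC1A5 fell further, while SLC38A1 and SLC38A2 stood at 12 h values. Thus 5 of the 10 passed as lower and none as higher, against 1.61% of all genes tested passing as lower, 1.12% as higher, and 4.73% passing as lower among those at least as abundant as the least abundant member. In 7 members every 24 h library lay below every 12 h library, as in 9.33% of all genes. None fell by at least 1.5-fold between these times, against 0.104% of all genes. The median log2 fold change of the 10 was -0.16 beside 0.0035 over all genes.

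Among the light chains, SLC7A11 fell by a further 0.35 ± 0.057 (adjusted p = 0.00139) and SLC7A5 by 0.28 ± 0.048 (adjusted p = 0.000616). SLC7A5 passed under every alternative, whereas SLC7A11 did not without 12 h replicate 1 (-0.38, adjusted p = 0.109). SLC3A2 changed by -0.18 ± 0.041 (adjusted p = 0.0111), SLC1A5 by -0.19 ± 0.040 (adjusted p = 0.00617) and SLC1A4 by -0.20 ± 0.049 (adjusted p = 0.0181). These 3 genes missed the threshold without 12 h replicate 3 or without 24 h replicate 1, with adjusted p of up to 0.123, 0.105 and 0.189, and SLC3A2 and SLC1A4 also without 24 h replicate 3. The number of members that passed was accordingly 2 without 12 h replicate 3, 2 without 24 h replicate 1 and 3 without 24 h replicate 3.

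The other 5 members did not pass between 12 h and 24 h. SLC7A1 (-0.14 ± 0.040, adjusted p = 0.0620) and SLC43A1 (-0.15 ± 0.044, adjusted p = 0.0733) lay near the threshold with no overlap between their libraries, and DESeq2 put both below it (adjusted p = 0.0236 and 0.0254). SLC6A9 was at -0.11 ± 0.046 (adjusted p = 0.269). SLC38A1 was at -0.0058 ± 0.042 (adjusted p = 0.976) and SLC38A2 at 0.058 ± 0.048 (adjusted p = 0.674).

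Levels of different genes were compared per kilobase of merged exons. At 0 h SLC1A5 stood highest at 98.9 ± 1.32 CPM per kilobase (SD, n = 2). SLC7A11 at 70.2 ± 9.01, SLC7A1 at 65.6 ± 2.24 and SLC38A2 at 62.8 ± 5.03 followed, and neighbours among these 3 overlapped. SLC3A2 was at 52.5 ± 0.37 and SLC38A1 at 38.0 ± 2.47. The lower 4 were SLC43A1 at 22.8 ± 0.82, SLC6A9 at 18.6 ± 0.42, SLC7A5 at 16.6 ± 0.92 and SLC1A4 at 9.73 ± 0.26, with no overlap between neighbours.

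By 24 h SLC1A5 was still first at 70.0 ± 2.93 CPM per kilobase (n = 3) and SLC1A4 still last at 6.73 ± 0.36. SLC38A2 (55.2 ± 1.22) and SLC7A1 (52.1 ± 0.93) came next, and SLC7A11 (36.4 ± 1.30) had dropped to a level that overlapped that of SLC3A2 (36.0 ± 1.65). The order depended on the length used. SLC3A2 has 41 annotated transcripts, and its merged exons span 6392 bases while its longest transcript has 2843. With the length of the longest transcript in its place, SLC3A2 at 118 CPM per kilobase ranked first at 0 h, just above SLC1A5 at 114. SLC7A11 went from the second to the fourth place on merged exons and from the fourth to the sixth on the longest transcript.

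**Figure D3:**
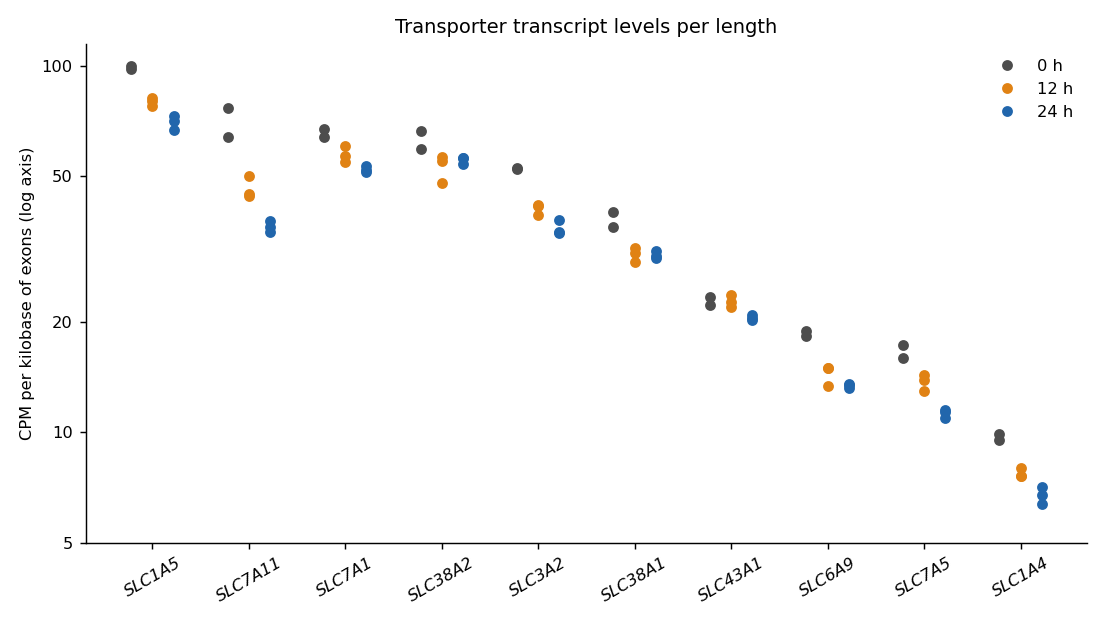
CPM per kilobase of merged exons (vertical axis, log scale) of the 10 transporters (horizontal axis, in the order of their 0 h means), 1 point per library, colored by time. SLC1A5 is highest and SLC1A4 lowest at each time, and SLC7A11 moves from 70.2 at 0 h to 36.4 at 24 h, level with SLC3A2.

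Partners were also compared by the ratio of their levels per kilobase within a library. xCT and LAT1 share the SLC3A2 heavy chain, and the ratio SLC7A11/SLC3A2 was 1.45 and 1.22 at 0 h, 1.07, 1.13 and 1.21 at 12 h, and 1.01, 0.996 and 1.03 at 24 h. It was lower at each later time with no overlap between groups. Its size depends on the length used. Per kilobase of the longest transcript, SLC7A11 stood below SLC3A2 at 0 h (70.2 against 118 CPM) and at 24 h (36.4 against 80.9 CPM). A length scales every library alike, so changes of the ratio between times do not depend on it. The exact two-sided permutation test gave p = 0.1 in each of the 3 comparisons, which is the smallest p these group sizes allow (adjusted p = 0.171 over the 12 ratio tests). The ratio SLC7A5/SLC3A2 was 0.317 ± 0.015 (SD) at 0 h, 0.337 ± 0.0063 at 12 h and 0.314 ± 0.0090 at 24 h, so its 12 h libraries lay above both 0 h libraries and above every 24 h library (exact permutation p = 0.1 each, the smallest possible, adjusted p = 0.171). Its 0 h and 24 h libraries overlapped (exact permutation p = 0.7).

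For the closest relatives, SLC38A1/SLC38A2 was 0.606 ± 0.0091 at 0 h, 0.578 ± 0.024 at 12 h and 0.552 ± 0.0088 at 24 h, with the 24 h libraries below both 0 h libraries (exact permutation p = 0.1, the smallest possible). SLC1A4/SLC1A5 was 0.0984 ± 0.0039, 0.0969 ± 0.0019 and 0.0960 ± 0.0011 at the 3 times, and its groups overlapped in every comparison (exact permutation p of 0.5 to 0.6). No ratio test could reach 0.05 at these group sizes.

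**Figure D4:**
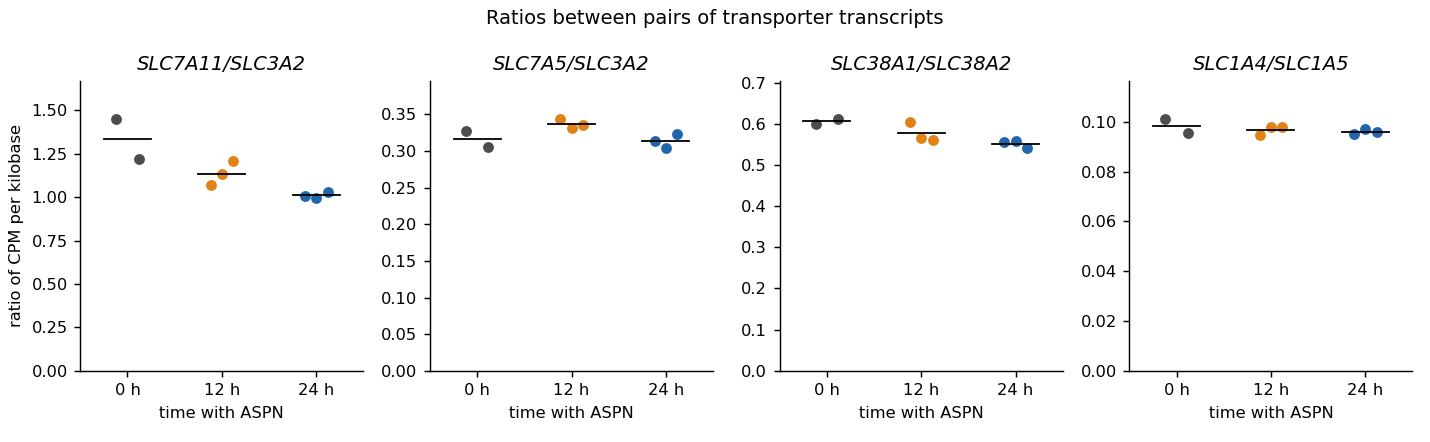
Ratio of CPM per kilobase of merged exons (vertical axes, each from 0) for 4 pairs of transporters in each library by hours with ASPN (horizontal axes). Lines mark the group means, and the size of a ratio depends on the lengths used. SLC7A11/SLC3A2 steps down from a mean of 1.34 at 0 h to 1.01 at 24 h, whereas SLC1A4/SLC1A5 stays between 0.0947 and 0.101 in all 8 libraries.

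Over the 8 libraries, log2 CPM of SLC1A4 and SLC1A5 had a Pearson r of 0.99, as did SLC3A2 and SLC1A5, and the r of SLC7A11 was 0.97 with SLC3A2 and with SLC7A5. SLC43A1 stood apart from the SLC38 genes, with r of -0.073 to SLC38A2 and 0.29 to SLC38A1. Among 13463 well-counted genes, the profiles most like that of SLC7A11 were SEL1L (r = 0.996, a subunit of the ER-associated degradation complex), ESRP1 (r = 0.995, an epithelial splicing factor) and PJA2 (r = 0.995, a ubiquitin ligase). Those most like SLC7A5 were DDIT3 (r = 0.996, the stress factor CHOP), TRIB3 (r = 0.996, a pseudokinase induced by stress) and PDIA4 (r = 0.994, an ER protein disulfide isomerase). Those most like SLC3A2 were SRPRA (r = 0.997, the signal recognition particle receptor), AASS (r = 0.996, a lysine-degrading enzyme) and SESN2 (r = 0.995, a leucine sensor). These correlations describe libraries in 3 time groups, and a shared difference between the groups alone gives a high r.

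Of 30 other amino acid transporters of the plasma membrane, 17 were tested, of which 1 rose and 1 fell at 12 h, and 4 rose and 3 fell at 24 h, with a median log2 fold change of 0.13 at 24 h. For this and the lists that follow, the shares of all genes are those given above, 6.75% lower and 4.85% higher at 12 h and 8.49% lower and 7.82% higher at 24 h. Between 12 h and 24 h they are 1.61% lower and 1.12% higher. These other carriers were scarcer than the 10 members, and 7 of the 17 averaged below 1 CPM. Only 3 of them were as abundant as the least abundant member, and of these 1 rose and none fell at 24 h. SLC6A6, the taurine transporter, rose from 16.1 ± 1.04 CPM (SD, n = 2) to 21.2 ± 1.04 at 12 h and 23.7 ± 1.41 at 24 h (n = 3), a log2 change of 0.57 ± 0.073 at 24 h (adjusted p = 7.70e-07). SLC7A2, a cationic carrier related to SLC7A1, went from 50.2 ± 0.98 to 58.8 ± 1.02 CPM at 24 h and rose by 0.23 ± 0.053 (adjusted p = 0.00241), while SLC7A1 fell. SLC38A4, a relative of SLC38A2, fell from 0.550 ± 0.33 CPM to 0.0744 ± 0.035 at 24 h (adjusted p = 0.000587), which is close to the limit of 0.0310 to 0.0413 CPM that a count of 0 allows in a library.

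The difference between the 10 members and the carriers of inner membranes was not tested. Of 7 lysosomal amino acid transporters tested, 1 rose and none fell at either time. The riser was MFSD12, a cysteine carrier of lysosomes and melanosomes, at 0.33 ± 0.057 at 24 h (adjusted p = 5.99e-05). Of the 7, only this gene was at least as abundant as the least abundant member. HMG20B on the opposite strand shares 6.98% of the exon bases of MFSD12 and held 114037 counts against 50387 for MFSD12. SLC38A7 was at -0.12 (adjusted p = 0.121) and SLC36A1 at 0.14 (adjusted p = 0.329) at 24 h. Of 11 mitochondrial carriers tested, 2 rose at 12 h and 1 at 24 h, and none fell. Only 4 of the 11 were at least as abundant as the least abundant member. Of these 4, 1 rose at 12 h, none rose at 24 h and none fell. SLC25A29, a carrier of basic amino acids, rose by 0.33 ± 0.078 at 24 h (adjusted p = 0.00259), SLC25A22 was at 0.16 (adjusted p = 0.0584) and SLC25A38 at -0.097 (adjusted p = 0.217).

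Of 17 regulators of the amino acid response tested, 10 fell and 2 rose at 12 h, 10 fell and 1 rose at 24 h, and 6 fell between 12 h and 24 h, with a median log2 fold change of -0.31 at 24 h. In all, 15 of the 17 were at least as abundant as the least abundant member. Of these 15, 9 fell at 12 h and 8 at 24 h, where 16.3% and 18.5% of all genes that abundant fell. Between 12 h and 24 h, 6 of the 15 fell, where 4.73% of all genes that abundant fell. DDIT3 fell from 78.8 ± 4.28 CPM (SD, n = 2) to 56.9 ± 5.33 at 12 h and 39.5 ± 1.60 at 24 h (n = 3), a change of -0.996 ± 0.061 at 24 h (adjusted p = 2.33e-13). MARS1 on the opposite strand shares 27.2% of the exon bases of DDIT3 and held 203927 counts against 37428 for DDIT3. ATF3, a stress-induced repressor, fell by 0.76 ± 0.058 (adjusted p = 6.21e-11), and TRIB3 went from 435 ± 21.0 to 250.2 ± 7.12 CPM and fell by 0.80 ± 0.057 (adjusted p = 9.70e-11) at 24 h. The regulators were listed with earlier results of these libraries known, so their direction is not independent evidence.

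Among 33 genes of amino acid sensing upstream of mTORC1, 2 rose and 3 fell at each of the 3 comparisons, and the median at 24 h was 0.00016. At least as abundant as the least abundant member were 13 of the 33. Of these 13, 2 fell and none rose at 12 h and at 24 h, and 1 fell and 2 rose between 12 h and 24 h. SESN2, which binds leucine, fell by 0.75 ± 0.052 at 24 h (adjusted p = 4.18e-12) from 136 ± 2.30 to 81.0 ± 2.70 CPM. SAR1B, also known as a leucine sensor, fell by 0.42 ± 0.053 (adjusted p = 4.88e-07), and FLCN, a regulator of the Rag GTPases, rose by 0.25 ± 0.068 (adjusted p = 0.00957). FLCN shares 11.9% of its exon bases with a gene on the same strand, which held 81 counts against 15114 for FLCN.

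Of 19 genes of cystine and glutathione metabolism, which uses what SLC7A11 imports, 5 fell and 2 rose at 24 h, and the median was 0.014. At least as abundant as the least abundant member were 11 of the 19. Of these 11, 3 fell and none rose at 24 h, where 18.5% of all genes that abundant fell. CTH, which makes cysteine from cystathionine, fell by 0.87 ± 0.058 (adjusted p = 1.55e-12) from 66.7 ± 6.06 to 36.5 ± 1.75 CPM. CHAC1, which degrades glutathione, fell by 0.64 ± 0.061 (adjusted p = 2.37e-09), and GCLM, a subunit of the enzyme that starts glutathione synthesis, by 0.33 ± 0.057 (adjusted p = 6.56e-05).

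Of 17 enzymes of glutamine, glutamate and branched-chain amino acids, 5 fell and 1 rose at 24 h, with a median of -0.084. At least as abundant as the least abundant member were 9 of the 17. Of these 9, 3 fell and 1 rose at 24 h, where 18.5% of all genes that abundant fell. GOT1, the cytosolic aspartate aminotransferase, fell by 0.51 ± 0.047 (adjusted p = 1.03e-09), BCAT1, the cytosolic branched-chain aminotransferase, by 0.62 ± 0.093 (adjusted p = 9.62e-06) and GLUD1, the mitochondrial glutamate dehydrogenase, by 0.30 ± 0.047 (adjusted p = 1.33e-05). Like SLC38A1, GLUD1 fell by 12 h (-0.31) and was at 0.011 between 12 h and 24 h.

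**Figure D5:**
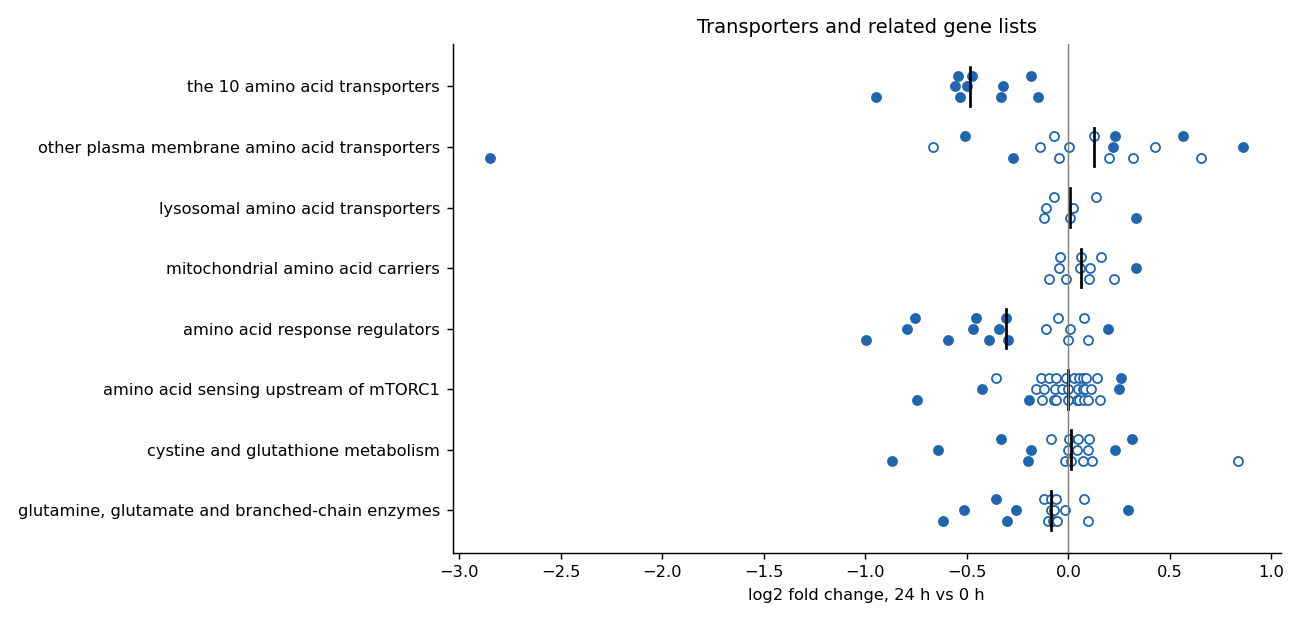
Log2 fold change at 24 h against 0 h (horizontal axis) of every tested gene of the 10 transporters and of 7 related lists (vertical axis), filled where the adjusted p from edgeR is at most 0.05, with a bar at each median. The medians are -0.49 for the 10 transporters, 0.13 for the other plasma membrane transporters and -0.31 for the regulators of the amino acid response, and the point at -2.85 is SLC38A4, which lies below 1 CPM.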

How the data were processed

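The authors deposited raw read counts per gene for 8 LNCaP libraries. Per the study's methods and the submitters' processing notes, they trimmed adapters with Cutadapt, aligned paired reads with STAR 2.7.11a to GRCh38.p13 and counted reads per gene with featureCounts. Strand and multi-mapping options were not given in the sources used here. The study's methods state that a time-zero LNCaP replicate missed the quality threshold and was left out. The second 0 h column carries a number that no 0 h label has, so it was used without a replicate number. Columns of per-sample values left unused numbered 0. File coordinates equalled those of GENCODE on GRCh38 for 30996 of 30996 shared identifiers.

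In R 4.3.3, counts that passed filterByExpr were scaled by TMM and fitted with edgeR 4.0.16 (robust glmQLFit, then glmQLFTest) with 1 coefficient per time over all 8 libraries and no covariate, and p values were adjusted over 21071 genes. The SE was the log2 fold change divided by the root of F. The biological coefficient of variation was 5.59%. DESeq2 1.42.0, other scalings and filters, and fits without each library were the alternatives. The fitting was also run on counts simulated from the means and trended spread of these data, and no result here rests on that run. Chi-square per degree of freedom between replicates was 5.10 to 13.8 over 7 pairs, so each library was counted once. A count of 0 allows 0.0310 to 0.0413 CPM, taking 3 counts as the limit, which covers counting error only because PCR copies were not told apart.

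The members and the 7 lists (136 genes, 121 tested) were chosen with earlier results of these data known. The genes named are the 10 members, the 3 genes of each list with the smallest p at 24 h against 0 h, and the 3 genes with at least 100 mean normalized counts most correlated with SLC7A11, SLC7A5 and SLC3A2. Pearson correlations were taken on log2 CPM with a prior count of 0.5. Ratios of members were tested with exact permutation tests. Lengths came from GENCODE and promoter sequences from RefSeq (GRCh38.p14), and similar transcripts were sought with blastn 2.17.0.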

Additional observations from a re-analysis of the deposited data

How the results depend on the processing

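Of 490 values of the 10 members under alternatives, 435 kept their direction and side of the threshold, 25 no longer passed, 18 came to pass and 12 changed sign. The sign changes were in values that did not pass. SLC43A1 at 12 h against 0 h was 0.0066 with upper-quartile scaling, 0.019 with library totals, 0.0024 without a filter, 0.0022 with a mean of at least 100 counts, and -0.044 to 0.041 when 1 library was left out (0.041 without the unnumbered 0 h library, 0.019 without 12 h replicate 2, 0.00011 without 12 h replicate 3, 0.00075 without 24 h replicate 2). Between 12 h and 24 h, SLC38A2 was -0.016 without 12 h replicate 1 (range over libraries left out -0.016 to 0.10), and SLC38A1 (range -0.047 to 0.024) was 0.024 without 12 h replicate 2, 0.00046 without 12 h replicate 3 and 0.0072 without 24 h replicate 1. The number of members passed when 1 library was left out was 7 to 9 at 12 h, 8 to 10 at 24 h and 2 to 7 between 12 h and 24 h, and the last was 3 at an adjusted p of at most 0.01. Per kilobase of the longest transcript, 0 h levels were 118 for SLC3A2, 114 for SLC1A5, 85.3 for SLC38A2, 68.7 for SLC7A1, 47.0 for SLC38A1, 32.04 for SLC43A1, 30.5 for SLC6A9 and 11.7 for SLC1A4 CPM. Without a filter, 2 mitochondrial carriers passed at 24 h against 1. Deviations of the 12 h and 24 h libraries had r of 0.119, 0.030 and 0.029 for shared replicate numbers and -0.101 to 0.073 for unshared ones. With 3 libraries per group, these values cannot decide whether the numbers pair the libraries. A fit with the replicate block passed 7 members between 12 h and 24 h in place of 5. For the comparisons with 0 h, no paired analysis was run, because only 1 of the 0 h columns carries a number that a 0 h label gives. No time control without ASPN was analysed, and with 2 libraries at 0 h the comparisons rest on a spread shared over the time points. The cause of the changes was not tested.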
